A study of Mus musculus with 6 samples.

Results

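Of 9 acute-phase and complement genes, 8 were followed in endothelial cells (ECs) from mice that lacked Stk11 in the endothelium (Stk11ec-/-) and from wild-type (WT) mice. The 9 genes (Lcn2, Hp, Saa3, Cp, Ptx3, C3, Cfb, C4b and Serping1) were matched by symbol to loci with an Ensembl transcript. Of 91725 loci in the table, 53530 carry such a transcript, and 8 of the 9 symbols have a locus of their own. Cfb was joined with its neighbour C2 in 1 assembled locus (chromosome 17, 34856374 to 34898265), which is described beside the others and not counted among them. All 8 passed the filter on low counts that left 17396 loci for testing. The genes were selected on their counts and FPKM in these 6 libraries, Stk11ec-/- against WT, which were already known, so the levels and differences of the 8 are descriptions, with no test.

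RNA was sequenced from 3 Stk11ec-/- and 3 WT libraries of ECs, the cells that line blood vessels, in mice on the C57BL/6 background. In Stk11ec-/- mice (Stk11 fl/fl with Cdh5-Cre), Cre recombinase driven by an endothelial promoter removes Stk11, the gene of the kinase Lkb1, from ECs, and the WT mice carry no such deletion by their labels. The labels give an age of 2 months for both genotypes and the methods give 8 to 12 weeks. The tissue of the sequenced ECs is given by neither, nor is it said that the libraries are of different mice. The spread between libraries, on which every p rests, may therefore not be a spread between mice. Read counts summed to between 37114459 and 55545899 in Stk11ec-/- libraries and between 22179567 and 52795240 in WT libraries.

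The acute-phase response is the change in plasma proteins that follows infection or injury. Interleukin-6, interleukin-1 and tumour necrosis factor drive it through the transcription factors STAT3, C/EBP and NF-kappaB, mainly in hepatocytes, and many of the same genes are also transcribed locally by stromal, epithelial and vascular cells. Complement is a cascade of plasma proteases that converges on the cleavage of C3 and marks microbes and damaged cells for removal. ECs both make complement components and carry regulators that protect their surface from them.

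The levels of the 8 genes varied widely among libraries of 1 genotype. The SD within genotypes of log2(CPM + 1), where CPM is the count scaled to library size after TMM (trimmed mean of M values) normalization, was larger for Hp than for 91.9% of tested loci and larger for C4b than for 99.9% of them, and the other 6 lay between these. The median of this SD was 0.41 over all tested loci and 2.82 for C4b. Levels below are FPKM, fragments per kilobase scaled to library size, which also allow a comparison between genes. Over 6 libraries, C3 ran from 3.40 to 144 FPKM and Ptx3 from 1.67 to 12.02 FPKM.

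**Figure D1:**
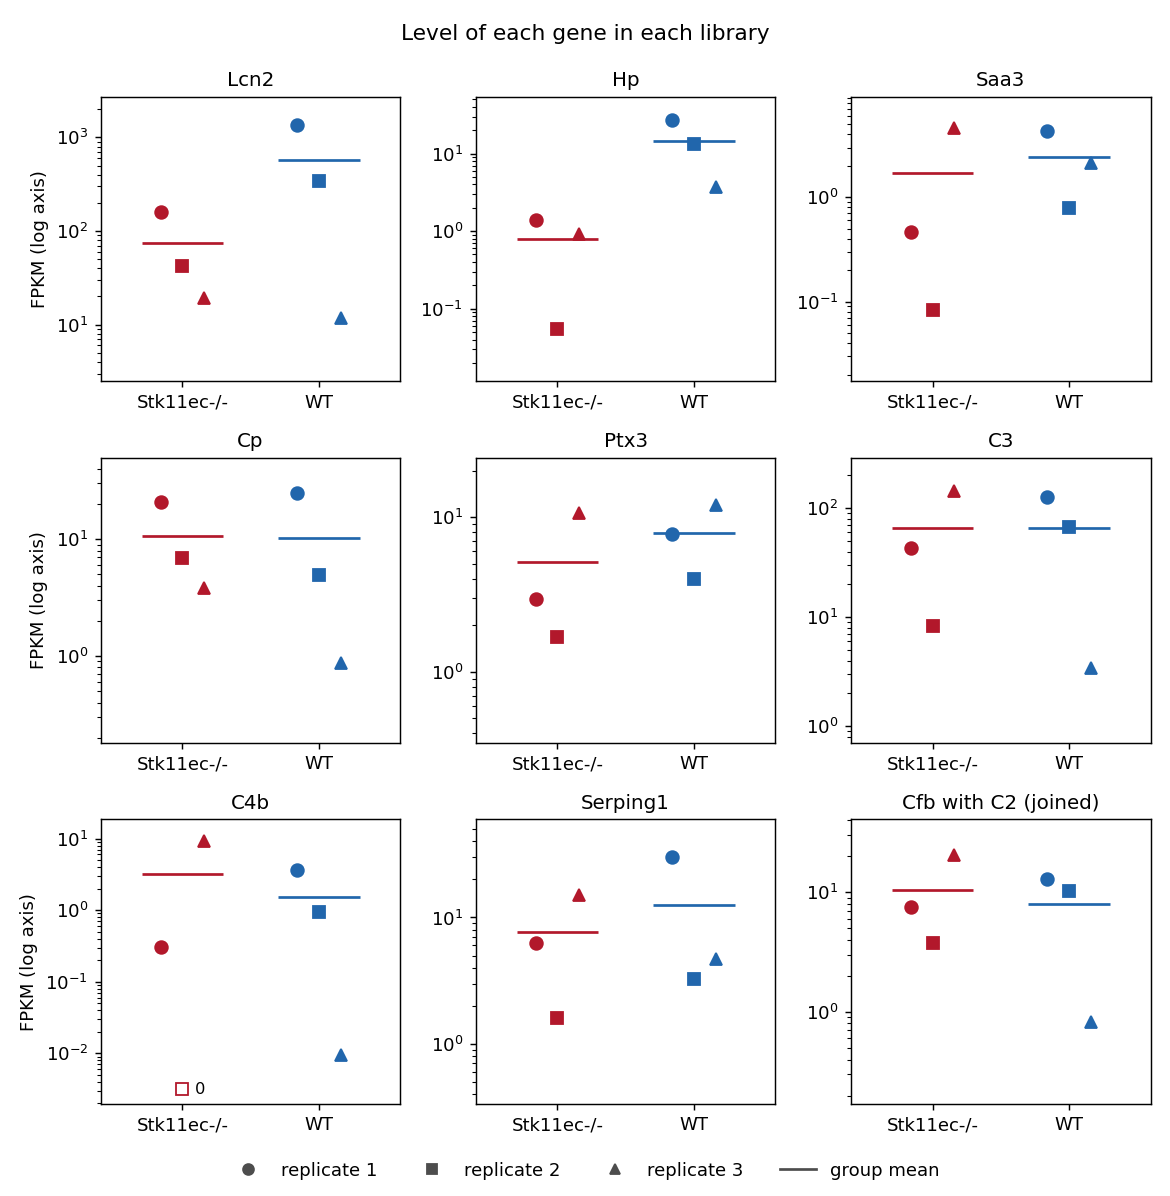
FPKM on log axes in the 3 Stk11ec-/- libraries (left in each panel) and the 3 WT libraries (right), with the marker giving the replicate number, an open marker a value of 0 and a line the mean of each genotype. Hp is the gene whose genotypes do not overlap, with 0.0555 to 1.38 FPKM in Stk11ec-/- libraries and 3.68 to 26.9 FPKM in WT libraries.

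The products of Lcn2, Hp and Cp bind iron carriers, haemoglobin or copper. Lcn2 (chromosome 2, 32384633 to 32388252) encodes lipocalin-2, which withholds iron from bacteria by binding their siderophores. It was at 161, 42.5 and 19.1 FPKM in Stk11ec-/- replicates 1, 2 and 3, against 1356, 339 and 11.9 FPKM in WT replicates 1, 2 and 3. WT replicates 1 and 2 were the highest and WT replicate 3 was the lowest of all, so the genotypes overlapped. In WT replicate 1 Lcn2 ranked 26 among the 17396 tested loci by FPKM, and in WT replicate 3 it ranked 1950. Its log2 fold change on counts was -3.10 (SE 1.34), with a 95% interval from -6.25 to 0.04, and -1.72 without WT replicate 1. As a difference of mean log2(FPKM + 1) it was -1.80.

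Haptoglobin, the product of Hp (chromosome 8, 109575128 to 109579172), captures free haemoglobin. Hp was at 1.38, 0.0555 and 0.918 FPKM in Stk11ec-/- replicates 1, 2 and 3, against 26.9, 13.4 and 3.68 FPKM in WT replicates 1, 2 and 3. Every Stk11ec-/- library lay below every WT library, and Hp was the 1 of the 8 genes of which this holds. Among all tested loci 6.59% were lower without overlap in CPM and 7.7% were higher. The log2 fold change of Hp on counts was -4.32 (SE 1.08), and it lay between -4.76 and -3.77 when each library was left out. Its 95% interval ran from -6.86 to -1.79, which is no test, since the genes were selected on these values.

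Markers of hepatocytes, the main source of Hp in plasma, were present in some libraries. The 10 markers summed to 108 CPM in Stk11ec-/- replicate 1, against 181 CPM in WT replicate 1 and 155 CPM in WT replicate 2. All 10 were at 0 in Stk11ec-/- replicates 2 and 3, and 9 of 10 were at 0 in WT replicate 3, where they summed to 0.833 CPM. Hp itself was at 2.34 CPM in Stk11ec-/- replicate 1, which held all of these markers, and at 10.2 CPM in WT replicate 3, which held 1. In bulk RNA, fewer cells of a type and less RNA per cell cannot be told apart, and the part of hepatocyte RNA in the difference of Hp was not tested.

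Albumin (Alb) had 3481 counts in Stk11ec-/- replicate 1, against 2345 counts in WT replicate 1 and 2693 counts in WT replicate 2. Relative to Alb, a comparison chosen after the data were seen, Hp was at 3.85 counts per 100 Alb counts in Stk11ec-/- replicate 1, against 46.6 and 36.0 in WT replicates 1 and 2. Over Hp and all 25 loci of the other acute-phase proteins described below, 20 of 26 were lower in Stk11ec-/- replicate 1 than in both WT libraries, 4 were higher than in both (the Serpina1a locus, Cd14, A2m and Fn1) and 2 lay between. Fga, the alpha chain of fibrinogen, was at 6.66 counts per 100 Alb counts in Stk11ec-/- replicate 1, against 34.5 and 25.9 in WT replicates 1 and 2. Of the 9 other hepatocyte markers, 5 were higher in Stk11ec-/- replicate 1 than in both WT libraries, 3 were lower than in both and 1 lay between them. The Serpina1a locus also holds the marker Serpina1c and stands in both counts, and some acute-phase genes of the list, such as Fn1, are also made by other cells. Among the 20 lower loci, Lbp, Serpina3n, Steap4, Mt1 and Mt2 were also present in libraries with 0 Alb counts. Mt1 was at 36.2 and 51.1 CPM in Stk11ec-/- replicates 2 and 3. For such genes a ratio to Alb is not a measure of hepatocyte RNA alone. The share of all tested loci that were lower on this scale was not counted. With 1 Stk11ec-/- library there was no replicate check of the differences relative to Alb.

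**Figure D2:**
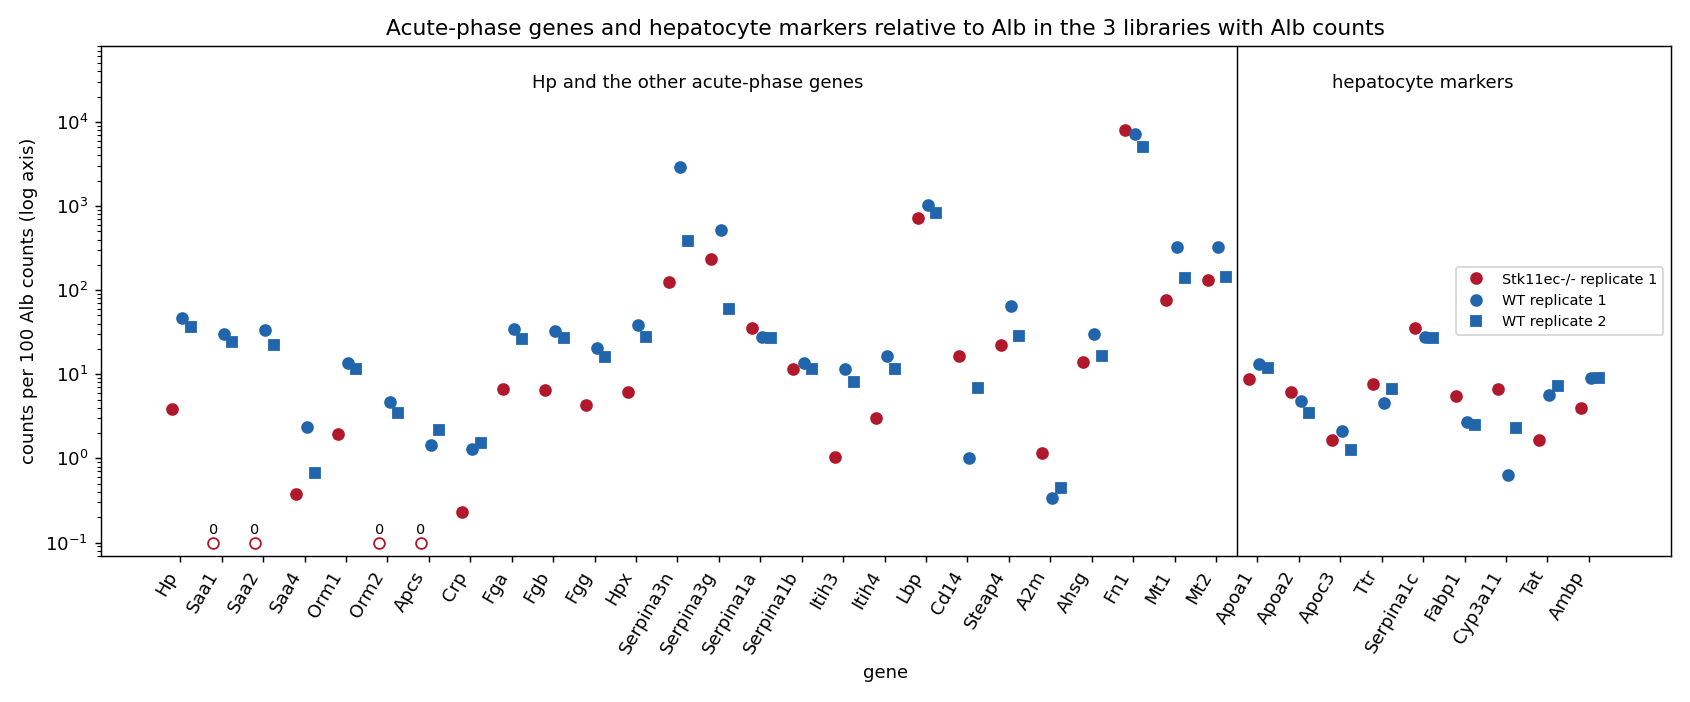
Counts per 100 Alb counts on a log axis for Hp, 25 loci of other acute-phase proteins and 9 hepatocyte markers, in Stk11ec-/- replicate 1 (left at each gene) and WT replicates 1 and 2 (right), with open markers for 0 and a joined locus under its first gene (Serpina1a and Serpina1c are 1 locus). Of the 26 acute-phase loci, 20 were lower in Stk11ec-/- replicate 1 than in both WT libraries and 4 were higher, and of the 9 markers 3 were lower and 5 higher. Some of the 20, such as Lbp, were also present in libraries without Alb counts, and the share of all tested loci lower on this scale was not counted.

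Cp (chromosome 3, 19957054 to 20009145) encodes ceruloplasmin, the copper-carrying ferroxidase that oxidizes iron as it leaves cells. It was at 21.0, 6.94 and 3.85 FPKM in Stk11ec-/- replicates 1, 2 and 3, against 24.7, 4.98 and 0.874 FPKM in WT replicates 1, 2 and 3. Replicate 1 was the highest and replicate 3 the lowest in both genotypes, and the genotypes overlapped. The log2 fold change on counts was -0.09 (SE 0.96), 1.37 without WT replicate 1 and -0.92 without Stk11ec-/- replicate 1.

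Saa3 and Ptx3 are acute-phase genes that are mainly transcribed outside the liver. Saa3 (chromosome 7, 46711998 to 46715700), a serum amyloid A made by macrophages, fat and epithelia, was at 0.466, 0.0828 and 4.58 FPKM in Stk11ec-/- replicates 1, 2 and 3, against 4.34, 0.795 and 2.14 FPKM in WT replicates 1, 2 and 3. Stk11ec-/- replicate 3 was the highest library and the other Stk11ec-/- libraries were the lowest. On counts the log2 fold change of Saa3 was -0.46 (SE 1.29), and -3.45 without Stk11ec-/- replicate 3. Ptx3 (chromosome 3, 66219910 to 66225805) encodes the long pentraxin that binds microbes and the C1q unit of complement. Its level was 2.97, 1.67 and 10.6 FPKM in Stk11ec-/- replicates 1, 2 and 3, against 7.77, 3.97 and 12.02 FPKM in WT replicates 1, 2 and 3. Replicate 3 was the highest library of each genotype. On counts Ptx3 had a log2 fold change of -0.82 (SE 0.83), and -2.26 without Stk11ec-/- replicate 3.

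The liver forms of serum amyloid A, Saa1 and Saa2, are close copies of each other, so that their reads may be split between them. Both had 0 counts in every Stk11ec-/- library and in WT replicate 3, so the genotypes overlapped. Saa1 was at 11.1 and 5.81 FPKM in WT replicates 1 and 2, and Saa2 at 12.4 and 5.29 FPKM. With the floor of 3 counts per library for Stk11ec-/- libraries, which covers counting error only, the WT mean in CPM was at least 277-fold higher for Saa1 and at least 290-fold higher for Saa2. Without WT replicate 1 these bounds were 170-fold and 157-fold. All 10 hepatocyte markers were detected in both WT libraries with these counts and also in Stk11ec-/- replicate 1, where Saa1 and Saa2 were at 0. In Stk11ec-/- replicates 2 and 3, which also enter the bounds, all 10 markers were at 0, and in WT replicate 3 so were 9 of 10.

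The complement genes C3 and C4b and the locus of Cfb had their highest level in Stk11ec-/- replicate 3. C3 (chromosome 17, 57203970 to 57228136) encodes the central component on which all activation routes converge. It was at 43.3, 8.36 and 144 FPKM in Stk11ec-/- replicates 1, 2 and 3, against 127, 66.6 and 3.40 FPKM in WT replicates 1, 2 and 3. Each genotype held both a high and a low library, with C3 at rank 143 of the tested loci in Stk11ec-/- replicate 3 and at rank 5188 in WT replicate 3. On counts C3 had a log2 fold change of 0.05 (SE 1.24), with a 95% interval from -2.86 to 2.97, and -1.62 without Stk11ec-/- replicate 3.

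C4b (chromosome 17, 34728380 to 34743882) encodes complement component 4, which together with C2 forms the C3 convertase of the classical and lectin routes. It was at 0.306, 0 and 9.30 FPKM in Stk11ec-/- replicates 1, 2 and 3, against 3.65, 0.936 and 0.00943 FPKM in WT replicates 1, 2 and 3. Stk11ec-/- replicate 3 was above all WT libraries and Stk11ec-/- replicate 2 had 0 counts, which allows up to 0.0770 CPM by counting error (3 counts), so both extremes lay in 1 genotype. On counts C4b had a log2 fold change of 1.29 (SE 2.16), and -3.49 without Stk11ec-/- replicate 3. C4a is a near-identical copy, and the division of reads between the copies is uncertain. C4b took 70.2%, 0% and 90.7% of the counts of both copies in Stk11ec-/- replicates 1, 2 and 3 (exact binomial 95% intervals 62.2% to 77.4%, 0% to 23.2% and 89.8% to 91.6%, for counting error only), against 88.4%, 84.6% and 13.8% in WT replicates 1, 2 and 3 (85.5% to 90.8%, 79.9% to 88.6% and 3.89% to 31.7%). The share was low in both libraries with few counts, of 14 in Stk11ec-/- replicate 2 and 29 in WT replicate 3.

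Factor B, the product of Cfb, forms the C3 convertase of the alternative route. The locus that joins Cfb with C2 was at 7.44, 3.78 and 20.3 FPKM in Stk11ec-/- replicates 1, 2 and 3, against 12.8, 10.2 and 0.819 FPKM in WT replicates 1, 2 and 3. The order of the libraries was that of C3, and how the reads divide between Cfb and C2 was not tested. On counts the joined locus had a log2 fold change of 0.37 (SE 0.95).

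C1 inhibitor, encoded by Serping1 (chromosome 2, 84765387 to 84775444), blocks the proteases that start the classical and lectin routes, and also plasma kallikrein and factor XII. Serping1 was at 6.33, 1.61 and 15.1 FPKM in Stk11ec-/- replicates 1, 2 and 3, against 29.9, 3.26 and 4.72 FPKM in WT replicates 1, 2 and 3. WT replicate 1 was the highest and Stk11ec-/- replicate 2 the lowest. The log2 fold change on counts was -0.65 (SE 0.99), -1.90 without Stk11ec-/- replicate 3 and 0.62 without WT replicate 1.

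**Figure D3:**
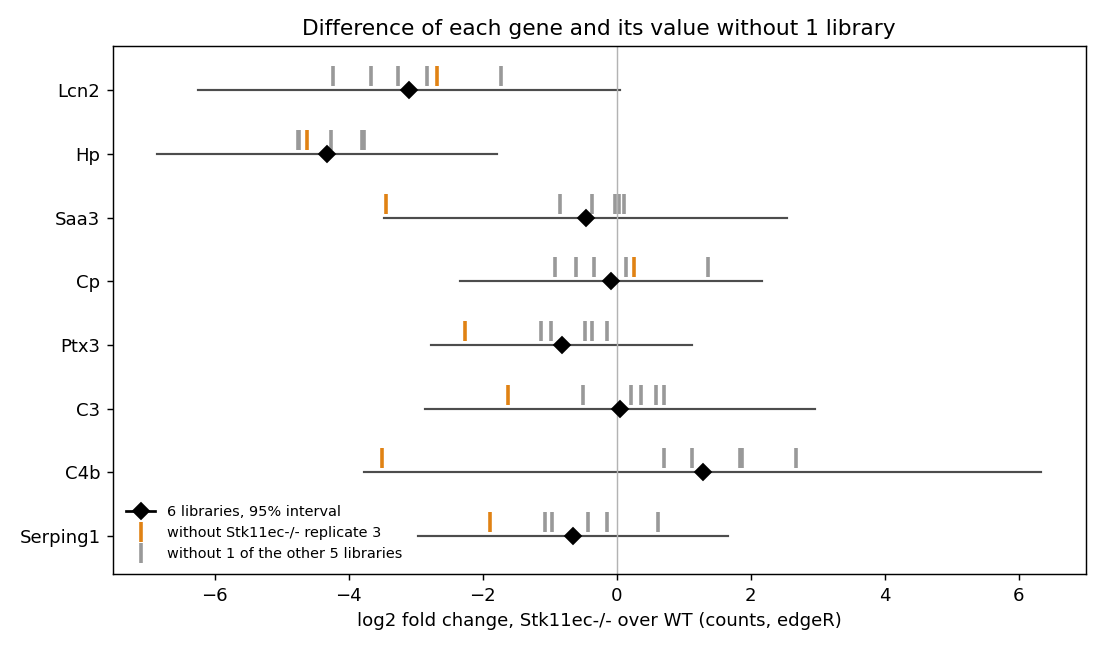
Log2 fold change of Stk11ec-/- over WT on counts from edgeR (diamonds), with its 95% interval (lines), and the value when 1 library was left out (ticks, orange without Stk11ec-/- replicate 3). Without that library, C3 was at -1.62 and C4b at -3.49, on the other side of 0 from their values over 6 libraries. The intervals are descriptions and no test, since the genes were selected on these values.

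Over the 8 genes, the median log2 fold change was -0.56, with 2 above 0 and 6 below. The median over all 17396 tested loci was 0.02, with 8960 above 0 and 8436 below. Which of the 8 lay above 0 depended on single libraries. Without Stk11ec-/- replicate 3, 1 was above 0 (Cp, at 0.25), and without WT replicate 1, 4 were above 0 (Cp at 1.37, C3 at 0.71, C4b at 2.67 and Serping1 at 0.62). Without replicate 3 of both genotypes, all 8 were below 0, from -5.04 for Hp to -0.28 for Cp.

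Seen by library, the 8 genes fell into different orders. Stk11ec-/- replicate 2 was the lowest of 6 libraries for Hp, Saa3, Ptx3, C4b and Serping1, and WT replicate 3 was the lowest for Lcn2, Cp and C3. Within Stk11ec-/- libraries, replicate 3 was the highest for Saa3, Ptx3, C3, C4b and Serping1, and replicate 1 was the highest for Lcn2, Hp and Cp. When each gene was expressed in SD units around its own mean over 6 libraries, the mean of the 8 was -0.22, -1.03 and 0.44 in Stk11ec-/- replicates 1, 2 and 3, against 0.997, 0.19 and -0.37 in WT replicates 1, 2 and 3. The mean was thus highest in WT replicate 1 and lowest in Stk11ec-/- replicate 2, with the other 4 libraries of both genotypes between them.

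**Figure D4:**
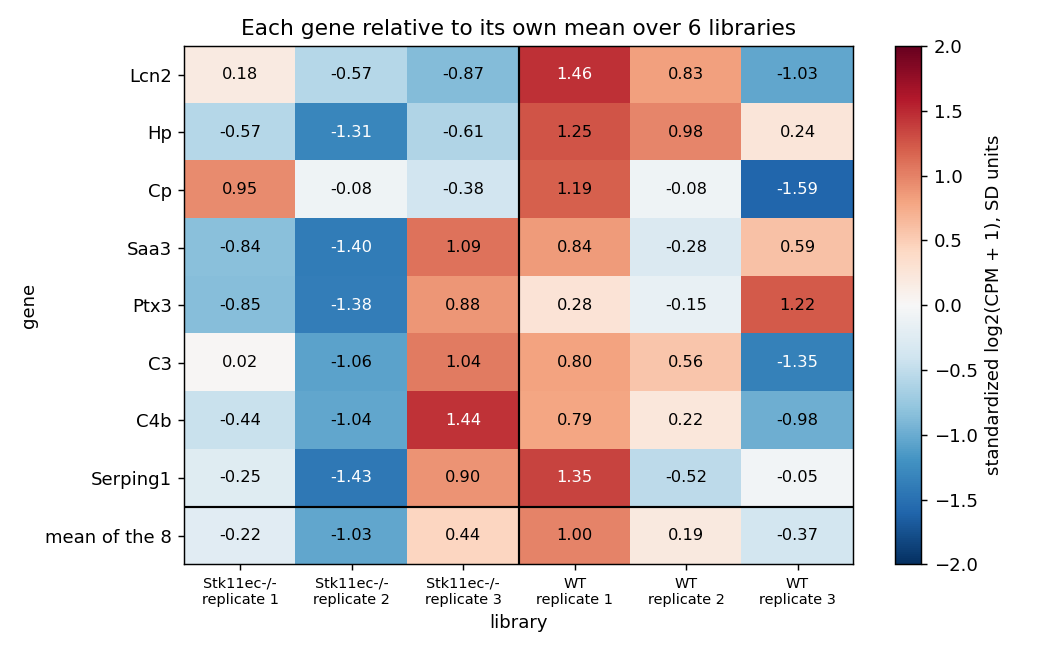
Log2(CPM + 1) of each gene in SD units around its own mean over 6 libraries, for Stk11ec-/- replicates 1 to 3 (left) and WT replicates 1 to 3 (right), with red above and blue below the mean of the gene. The bottom line is the mean of the 8 genes, from -1.03 in Stk11ec-/- replicate 2 to 0.997 in WT replicate 1.

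Cell type markers also varied between these libraries. The 12 endothelial markers were detected in every library and summed to 1639, 3123 and 322 CPM in Stk11ec-/- replicates 1, 2 and 3, against 994, 662 and 417 CPM in WT replicates 1, 2 and 3. The 12 fibroblast markers, of which 1 or 2 were at 0 in each library, summed to 319, 778 and 13838 CPM in Stk11ec-/- replicates 1, 2 and 3, against 3053, 1734 and 6610 CPM in WT replicates 1, 2 and 3. Stk11ec-/- replicate 3, which had the highest Saa3, C3 and C4b, thus had the highest fibroblast and the lowest endothelial sum, and WT replicate 3, with the lowest C3, had the second highest fibroblast sum. In Stk11ec-/- replicate 3, 13451 CPM of the fibroblast sum came from the collagens Col1a1, Col1a2 and Col3a1, and single markers had other orders, with Thy1 highest in Stk11ec-/- replicate 2 and Pdgfra highest in WT replicate 3. The endothelial sum was highest in Stk11ec-/- replicate 2. Pericyte and smooth muscle markers summed to between 1012 and 4738 CPM in Stk11ec-/- libraries and between 463 and 9734 CPM in WT libraries, each time highest in replicate 3. The 12 markers of neutrophils, which also make Lcn2 and Ptx3, summed to 1.59 to 5.60 CPM in Stk11ec-/- libraries and 0.571 to 18.6 CPM in WT libraries, with Ngp, Mpo and Ly6g at 0 in all 6 and Mmp8 at 15.5 CPM in WT replicate 3. The part of these cell types in the levels of the 8 genes was not tested.

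The labels could be checked only in part. Stk11 was at 12.7, 17.1 and 12.5 FPKM in Stk11ec-/- replicates 1, 2 and 3, against 13.2, 13.2 and 9.65 FPKM in WT replicates 1, 2 and 3. On counts the log2 fold change of Stk11 was -0.06 (SE 0.26, adjusted p = 0.966, edgeR), and counts over the whole gene do not check a deletion of some of its exons. Xist, in a locus joined with transcripts inside it, was at 268 to 464 CPM in Stk11ec-/- libraries and 0.598 to 1.18 CPM in WT libraries, and the Y-linked Kdm5d was at 0 to 0.171 CPM in Stk11ec-/- libraries and 8.67 to 12.4 CPM in WT libraries. Sex and genotype can therefore not be told apart in any difference given here.

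The genes whose profile over the 6 libraries was most like the mean profile of the 8, among 13368 named loci, were Pamr1, Map3k1, Grb14, Fbln1 and Naglu. Their Pearson correlations with it were 0.9903, 0.986, 0.983, 0.982 and 0.980 over 6 libraries that also differ in depth and cell type markers, and are given as a description. Fbln1, which encodes the matrix protein fibulin-1 and is one of the fibroblast markers above, was at 11.4, 4.29 and 24.3 CPM in Stk11ec-/- replicates 1, 2 and 3, against 29.4, 15.8 and 10.7 CPM in WT replicates 1, 2 and 3. It stands here because of its correlation with the 8 genes, and other fibroblast markers had other orders. Thy1 was highest in Stk11ec-/- replicate 2, and Pdgfra and Col1a2 were highest in WT replicate 3. A link of the mean profile to fibroblast RNA was not tested.

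RefSeq promoter sequences (GRCm38.p6) were matched for 5 of the 9 genes, Lcn2, Saa3, Cp, Ptx3 and C3. The 250 bases before each start were searched on both strands for a kappaB motif (GGGNNNNNCC), a C/EBP motif (TTNNGNAA) and a STAT motif (TTCNNNGAA), the letters bound by the factors named above. Of 32851 promoter windows of this length, 45.8% held the kappaB letters, 36.8% the C/EBP letters and 7.02% the STAT letters, and the STAT letters were in none of the 5 promoters. The stretches below, with matches in capitals, are shown because C3, Saa3 and Ptx3 were all high in Stk11ec-/- replicate 3 and Lcn2 was not. In WT replicate 3 Ptx3 was at its highest and C3 at its lowest, so these genes did not share an order over all libraries. A link of motifs to levels was not tested. The stretches lie within 150 bases before the start and outside annotated exons. The listed Lcn2 start (32387739) and the Lcn2 stretch lie inside the GENCODE gene, which runs to 32388252, so by that annotation the stretch is within the gene. The bases after the listed Ptx3 start were not found in a GENCODE transcript of the gene.
C3, chr17:57228137-57228286, minus strand: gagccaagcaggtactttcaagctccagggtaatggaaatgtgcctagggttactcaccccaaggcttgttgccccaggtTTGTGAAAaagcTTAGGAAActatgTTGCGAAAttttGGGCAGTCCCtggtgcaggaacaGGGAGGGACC
Saa3, chr7:46715701-46715826, minus strand: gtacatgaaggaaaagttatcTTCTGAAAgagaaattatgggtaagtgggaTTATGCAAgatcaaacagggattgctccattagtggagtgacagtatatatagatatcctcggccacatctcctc
Ptx3, chr3:66219737-66219886, plus strand: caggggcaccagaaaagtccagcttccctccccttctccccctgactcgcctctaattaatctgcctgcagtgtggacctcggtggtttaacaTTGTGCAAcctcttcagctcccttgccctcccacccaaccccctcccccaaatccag
Lcn2, chr2:32387798-32387850, minus strand: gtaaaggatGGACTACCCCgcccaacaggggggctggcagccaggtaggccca
In C3, 3 C/EBP matches began at positions -70, -58 and -45 from the start, and 2 kappaB matches lay between them and the start, with 2 overlapping kappaB matches farther upstream. Saa3 held 4 C/EBP matches and no kappaB match, and Ptx3 held 1 C/EBP match. Lcn2 held 1 kappaB match, on the other strand from the gene, and 1 C/EBP match. Of the 2 starts listed for Cp, 1 had a single C/EBP match and the other 1 match of each kind. A match of letters is not a site of binding.

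Other genes of the acute phase, complement and their control were taken from lists that leave out the 8, and the joined locus of Cfb and C2 counts among the other complement components. In every list edgeR called 0 genes at an adjusted p under 0.05, and so did limma on log2(FPKM + 1). Over all 17396 loci, edgeR called 0.046% higher and 0.0287% lower in Stk11ec-/- libraries. Of all tested loci, 758 had an unadjusted p under 0.05 and a higher level in Stk11ec-/- libraries, and 517 had a lower one.

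Of 25 loci of other acute-phase proteins, 20 were tested, and 17 of these had a log2 fold change below 0, with a median of -2.18. Among all 17396 tested loci, 8436 were below 0. Of the 20, 10 were at 0 in Stk11ec-/- replicate 2, 9 in Stk11ec-/- replicate 3 and 10 in WT replicate 3, the libraries with hepatocyte markers at or near 0, and none in the other 3 libraries. The part of hepatocyte RNA in this median was not tested. With unadjusted p under 0.05, 1 was higher (Cd14, the lipopolysaccharide co-receptor, at 2.31, named after its value was seen) and 5 were lower (Mt1, Mt2, Serpina3n, Hpx and Itih3). The metallothioneins Mt1 and Mt2, which bind zinc and copper, were the 2 of the 20 whose genotypes did not overlap. Among all tested loci, 6.59% were lower without overlap in CPM. Mt1 was at 35.6, 26.8 and 28.6 FPKM in Stk11ec-/- replicates 1, 2 and 3, against 245, 66.7 and 71.9 FPKM in WT replicates 1, 2 and 3. The log2 fold change of Mt1 was -2.23 (SE 0.44, adjusted p = 0.332, edgeR) and that of Mt2 was -1.92 (SE 0.49, adjusted p = 0.565, edgeR). Serpina3n, a serine protease inhibitor, was at 34.9, 12.4 and 32.7 FPKM in Stk11ec-/- replicates 1, 2 and 3, against 1311, 110 and 19.99 FPKM in WT replicates 1, 2 and 3, with the highest and the lowest WT library as for Lcn2. DESeq2 called Mt1, Mt2 and Serpina3n lower and no other of the list, where over all 17396 loci it called 105 lower and 111 higher. Hpx, the haem carrier hemopexin, had a log2 fold change of -3.54 (SE 1.37) and Itih3, a hyaluronan-binding plasma protein, one of -4.90 (SE 2.04), and both genes are made by hepatocytes. Hpx was at 2.38, 0.750 and 0.297 FPKM in Stk11ec-/- replicates 1, 2 and 3, against 23.7, 10.9 and 0.171 FPKM in WT replicates 1, 2 and 3, lowest in the WT library with 9 of 10 hepatocyte markers at 0. Fn1, the matrix protein fibronectin, had a log2 fold change of 0.13 (SE 0.47).

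Of 24 loci of other complement components, 12 were tested, with a median log2 fold change of 0.32, and at an unadjusted p under 0.05 none was higher or lower. DESeq2 called 0 of them. C1ra, a protease of the C1 complex, was at 8.33, 0.577 and 20.1 FPKM in Stk11ec-/- replicates 1, 2 and 3, against 12.3, 8.31 and 0.796 FPKM in WT replicates 1, 2 and 3. As for C3, Stk11ec-/- replicate 3 was the highest library and Stk11ec-/- replicate 2 and WT replicate 3 were the lowest. The other C1 protease, in a locus joining C1s1 and C1s2, had its highest level in Stk11ec-/- replicate 3 too, at 26.5 FPKM, and a log2 fold change of 2.20 (SE 1.4). The 3 genes of C1q did not pass the filter on low counts. Masp1, a protease of the lectin route, had a log2 fold change of -0.31 (SE 0.66), C8a, a part of the membrane attack complex, one of -2.71 (SE 2.11), and the locus that joins the lectin gene Colec11 with the ribosomal gene Rps7 one of -0.01 (SE 0.46).

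Complement regulators were tested at 14 of 17 loci, with a median log2 fold change of 0.37. One was higher at an unadjusted p under 0.05, the locus that joins Cd59a and Cd59b, which encode the surface inhibitor of the membrane attack complex. It was at 8.05, 5.02 and 3.57 FPKM in Stk11ec-/- replicates 1, 2 and 3, against 2.46, 2.44 and 1.27 FPKM in WT replicates 1, 2 and 3, without overlap, with a difference of 1.13 on the log2 scale of counts (SE 0.36, adjusted p = 0.637, edgeR). Cr1l, which encodes the rodent C3b regulator Crry, did not overlap in CPM but did in FPKM, and its log2 fold change was 0.55 (SE 0.27). Among all tested loci, 7.7% were higher without overlap in CPM. Factor H, the fluid-phase brake of the alternative route, shares a locus with Gm16332 that was at 26.6, 4.30 and 4.37 FPKM in Stk11ec-/- replicates 1, 2 and 3, against 7.83, 0.983 and 0.717 FPKM in WT replicates 1, 2 and 3. The log2 fold change was 0.39 (SE 0.60) for Cd55, which speeds the decay of C3 convertases, -1.75 (SE 1.17) for Clu, which encodes clusterin, and 3.84 (SE 1.91) for Susd4. DESeq2 called 0 of the regulators.

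Of 11 loci of complement receptors, 7 were tested, with a median log2 fold change of -0.13 and none past an unadjusted p of 0.05 in either direction. Calr, which encodes the chaperone calreticulin, also a C1q receptor, was at 200 to 312 FPKM in Stk11ec-/- libraries and 119 to 321 FPKM in WT libraries. The C3a receptor C3ar1 was at 0.387 to 1.90 FPKM in Stk11ec-/- libraries and 0.384 to 2.26 FPKM in WT libraries. Log2 fold changes were -0.45 (SE 0.29) for C1qbp, 0.42 (SE 0.83) for the endothelial receptor Cd93, -2.36 (SE 1.34) for the integrin Itgb2 and 0.52 (SE 1.27) for the locus with C5ar2. DESeq2 called 0 of the receptors.

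The list of cytokines, receptors, signalling inhibitors and transcription factors upstream of these genes was tested at 28 of 34 loci. Il1a, Il1b and Tnf, with at most 19 counts in any library, did not pass the filter on low counts. The median log2 fold change was -0.38, and 22 of the 28 were below 0, as were 8436 of all 17396 tested loci. With unadjusted p under 0.05, none was higher and 1 was lower, the tumour necrosis factor receptor Tnfrsf1a, whose log2 fold change was -0.65 (SE 0.24, adjusted p = 0.662, edgeR). Tnfrsf1a, the interleukin-17 receptor Il17ra and Nfkbia, which encodes the inhibitor IkappaB-alpha, were lower without overlap in CPM, and all 3 overlapped in FPKM. Among all tested loci, 6.59% were lower without overlap in CPM. The FPKM scale sets Stk11ec-/- libraries higher than the count scale does. Over the 10708 loci with a mean FPKM of at least 1, the median difference was 0.21 in log2(FPKM + 1) and -0.0015 on counts. Il6st, the shared signalling receptor of the interleukin-6 family, was at 101, 33.4 and 63.8 FPKM in Stk11ec-/- replicates 1, 2 and 3, against 241, 61.2 and 15.3 FPKM in WT replicates 1, 2 and 3. Log2 fold changes were -0.57 (SE 0.27) for Il17ra, -0.64 (SE 0.28) for Nfkbia, -0.60 (SE 0.36) for Nfkbiz and -0.19 (SE 0.25) for Rela. For the cytokine gene Il6 it was 0.13 (SE 0.70). DESeq2 called 0 of this list.

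Iron and haem handling, the pathway of Lcn2, Hp and Cp, was tested at 14 of 20 loci, with a median log2 fold change of -0.09. With unadjusted p under 0.05, none was higher and 1 was lower, the iron importer Slc11a2, at -0.73 (SE 0.25, adjusted p = 0.662, edgeR). Fth1, which encodes the ferritin heavy chain, was at 382, 324 and 125 FPKM in Stk11ec-/- replicates 1, 2 and 3, against 283, 117 and 90.9 FPKM in WT replicates 1, 2 and 3. Log2 fold changes were 0.50 (SE 0.43) for Fth1, -0.51 (SE 0.32) for the locus of the ferritin light chain Ftl1, -0.17 (SE 0.47) for Lrp1, the receptor of the hemopexin complex, -0.70 (SE 0.74) for the haem oxygenase Hmox1 and 1.71 (SE 1.08) for the iron exporter Slc40a1. Of the contact system and fibrinolysis genes around C1 inhibitor, 6 of 10 loci were tested, with a median log2 fold change of -1.75. One was higher at an unadjusted p under 0.05, the urokinase gene Plau, at 2.84 (SE 1.11, adjusted p = 0.669, edgeR), and none was lower. Log2 fold changes were -0.93 (SE 0.85) for the tissue plasminogen activator Plat, 0.57 (SE 0.43) for the locus with plasma kallikrein (Klkb1), -2.74 (SE 2.23) for Kng1, -2.56 (SE 1.86) for Bdkrb2 and -2.90 (SE 2.24) for Plg. Kng1 and Plg, both liver genes, were at 0 in Stk11ec-/- replicates 2 and 3 and in WT replicate 3. DESeq2 called 0 genes of either list.

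**Figure D5:**
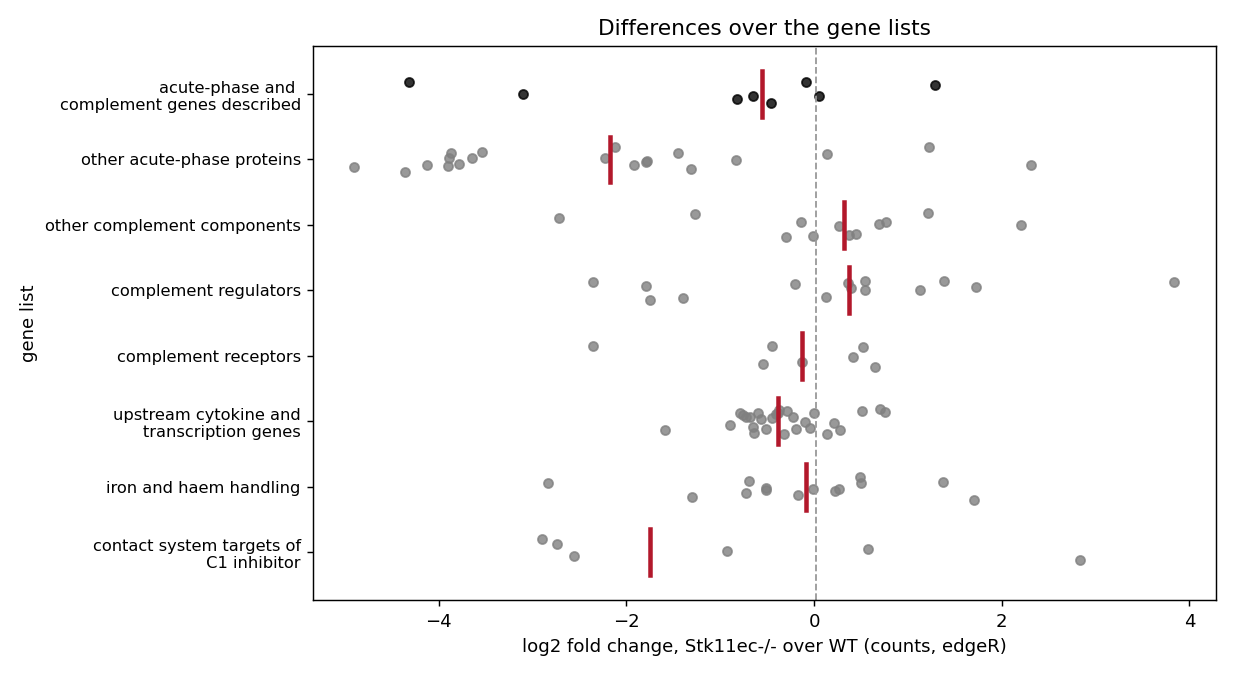
Log2 fold change of Stk11ec-/- over WT on counts for each tested locus (points, black for the 8 genes described, grey for other lists, spread vertically for view) with the median of each list (red bars) and of all tested loci (dashed line, 0.02). The median was -2.18 for other acute-phase proteins, and 0.32 and 0.37 for complement components and regulators.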

How the data were processed

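The authors deposited 1 table with a count and an FPKM value for each assembled locus in each of the 6 libraries. The deposited counts are whole numbers that were not scaled, and the authors scaled the FPKM values to transcript length and library size. According to the methods, reads were aligned with HISAT2 to GRCm38 and analysed with StringTie. BWA, TopHat, Cufflinks and mm9 stand in the processing notes of the submitters. The positions of the 8 genes equal those of GENCODE on GRCm38. Loci without a gene name (0.359% to 0.887% of counts per library) or without an Ensembl transcript (5.15% to 13.8%) were left out.

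The 9 genes, the gene lists and the rules were chosen with earlier results of these data known. Counts of 53530 loci were normalized by TMM and tested with edgeR 4.0.16 (R 4.3.3) by its quasi-likelihood test for genotype after the default filter, and p was adjusted by the Benjamini-Hochberg method at 0.05. The common biological coefficient of variation was 0.628. Overlap between genotypes was read on CPM. A joined locus counts once in a list. Genes named are the 9, their close copies, Stk11, the 4 of each list with the highest mean FPKM and the 2 others with the smallest p, and the 5 loci most like the mean profile. Alb, Fga, A2m, Cd14, Lbp, Steap4, Il6, Il1a, Il1b, Tnf, Xist, Kdm5d and single cell markers were named outside this rule, after their values were seen. Alternatives were DESeq2 1.42.0, limma 3.58.1 on log2(FPKM + 1) or log2(FPKM + 0.1), size factors by median ratios, no filter, a minimum mean FPKM of 1, a replicate block, all named loci, each library left out, and replicate 3 of both genotypes left out. Chi-square per degree of freedom between libraries of 1 genotype was 165 to 684, so none was counted as a copy.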

Additional observations from a re-analysis of the deposited data

How the results depend on the processing

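Over all loci, edgeR called 13 genes (8 higher and 5 lower in Stk11ec-/- libraries). It called 36 with no filter on low counts, 1 with the replicate block, 2 to 4 when each library was left out in turn and 0 without replicate 3 of both genotypes, and DESeq2 called 216 (111 higher, 105 lower). The main fit did not pair libraries by replicate number. Deviations of log2(CPM + 1) from the genotype mean correlated at 0.27, -0.24 and 0.05 between same-numbered libraries. Between libraries of different numbers these correlations ran from -0.35 to 0.27. With 3 libraries a genotype, such correlations cannot exclude a pairing. For other acute-phase proteins the count was 3 with DESeq2 and 0 in every other alternative, and for the other 6 lists it was 0 throughout. Of 15 alternatives, 0 turned the sign of Lcn2, Hp or Ptx3, 1 that of Serping1, 2 that of Saa3, 4 that of C3 and of C4b and 6 that of Cp, among them both limma fits, where Cp was at 0.52 and 0.75. With the replicate block C4b was at -3.13 and C3 at -0.91. Leaving out Stk11ec-/- replicate 3 alone moved Saa3, Ptx3, C3, C4b and Serping1 by over 1 on the log2 scale. Each genotype had 3 libraries, and cell type markers differed between them. The intervals of the 8 genes were wide, and what made them wide was not tested. They are not read as tests against 0.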

Other observations

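Stk11ec-/- replicate 2, the library with the highest sum of endothelial markers, was the highest of the 6 for several genes of the lists, which were singled out after their values were seen. Plau was at 18.6, 185 and 8.05 FPKM in Stk11ec-/- replicates 1, 2 and 3, against 6.94, 3.70 and 10.9 FPKM in WT replicates 1, 2 and 3. Cd14 was at 5.48, 18.1 and 1.24 FPKM in Stk11ec-/- replicates 1, 2 and 3, against 0.545, 2.33 and 0.739 FPKM in WT replicates 1, 2 and 3. Susd4, which encodes a membrane protein with complement control repeats, was at 3.78 FPKM in Stk11ec-/- replicate 2, against at most 0.29 FPKM in each of the other 5 libraries. The same library had 0 counts of C4b and the lowest C1s1 and C1s2 level of the Stk11ec-/- libraries, at 0.440 FPKM.

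Markers of other cell types also moved between libraries. Mesothelial and epithelial markers summed to 515, 139 and 968 CPM in Stk11ec-/- replicates 1, 2 and 3, against 689, 1946 and 122 CPM in WT replicates 1, 2 and 3. In WT replicate 2, 1646 CPM of this sum came from Msln, and Krt18 and Krt19 were highest there too. Upk1b (430 CPM), Upk3b (191 CPM), Wt1 (58.4 CPM) and Lrrn4 (3.01 CPM) were highest in Stk11ec-/- replicate 3. Krt8 was highest in Stk11ec-/- replicate 1 and Cdh1 in WT replicate 1. Adipocyte markers summed to 210, 142 and 29.8 CPM in Stk11ec-/- replicates 1, 2 and 3, against 408, 535 and 51.4 CPM in WT replicates 1, 2 and 3, with 4 to 6 of 9 at 0 in each. Macrophage and monocyte markers summed to 10.1 to 17.4 CPM in Stk11ec-/- libraries and 17.6 to 39.8 CPM in WT libraries. Their part in the levels of the 8 genes was not tested.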
